A study of Mus musculus with 12 samples.

Results

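Integrin subunits are the 10 genes *Itga2*, *Itga3*, *Itga6*, *Itga7*, *Itga8*, *Itga9*, *Itgb3*, *Itgb4*, *Itgb6* and *Itgb8*, and were taken by symbol from the 770 genes of the nCounter Mouse PanCancer pathways panel. All 10 were found in the data. The panel counts RNA molecules with color-coded probes, and the 12 samples were 4 control eyes, 5 RBS lesions and 3 Shh-MBs, each from a different mouse. Control eyes were taken at E18.5 from Ctnnb1(ex3)Fl/+SmoM2Fl/+ embryos, which carry both floxed alleles but no Cre driver, and the labels do not give whether their dams received tamoxifen. RBS lesions came from the orbits of embryos of the same age and alleles that also carried Rax-creERT2 and had been exposed to tamoxifen at E8.5. There, cells with an active *Rax* promoter, mainly early retinal precursors, lose exon 3 of *Ctnnb1* and express SmoM2, and the lesion takes the place of most of the eye. Shh-MBs were hindbrain tumors of 14 day old hGFAP-cre::SmoM2Fl/+ mice, in which the human GFAP promoter drives Cre and *Ctnnb1* is not altered. SmoM2 is the constitutively active form of Smoothened and is expressed in the lesions and the tumors, while the control eyes carry the allele unrecombined. Tissue, age and genotype therefore all change together between tumors and eyes and cannot be told apart.

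An integrin is a receptor in the cell membrane made of an alpha and a beta subunit, which binds the extracellular matrix outside the cell and connects it to the cytoskeleton and to signaling kinases inside. The alpha subunits encoded by *Itga3*, *Itga6* and *Itga7* bind laminins, the main proteins of basement membranes, and *Itgb4* encodes the beta subunit that joins with alpha 6 in the hemidesmosomes of epithelia. *Itga2* encodes the alpha subunit of a collagen receptor. *Itga8* and *Itga9* encode alpha subunits that bind matrix glycoproteins such as tenascin-C, and the beta subunits of *Itgb3*, *Itgb6* and *Itgb8* join with alpha v. Together with alpha v, beta 6 and beta 8 activate latent TGF-beta 1 and 3. The common beta 1 partner and alpha v were not analysed here.

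Each value is a normalized, background-subtracted signal (linear scale). A gene that did not exceed background carries the lowest value found in its sample, which was between 1 and 1.64. Depth, estimated from the spacing of low values, was between 335349 and 716962 counts above background, and 1 count was worth 0.81 to 1.64 units of signal. Differences are on the scale of log2(signal + 1) and were tested with limma (two-sided, Benjamini-Hochberg adjustment over all 770 genes, threshold 0.05). The median log2 difference of all 770 genes was 0.17 between RBS lesions and control eyes, 0.53 between RBS lesions and Shh-MBs, and -0.22 between Shh-MBs and control eyes. With each sample centred on its median of log2 values these medians were -0.01, -0.32 and 0.44, so that small differences turn with the scaling. Of the genes called, 64.5%, 79.1% and 23.4% were higher in the group named first, and 50%, 36.2% and 69.1% with median centring. Control eye 4 had the highest summed signal of 9 mesenchyme markers among all samples (58008, against 25588 to 42801 in the other control eyes) and the highest of 5 surface epithelium markers among the control eyes (569 against 264 to 351). It was also the control eye with the highest value of 5 of the 10 integrin subunits, namely *Itga7*, *Itga8*, *Itga9*, *Itgb4* and *Itgb6*, while it had the highest value of 30.6% of all genes. The part of these markers in the integrin values was not tested.

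RBS lesions had more RNA of 5 integrin subunits than control eyes. *Itga2*, *Itga6*, *Itga8*, *Itgb4* and *Itgb8* were higher at an adjusted p under 0.05 (5 of 10, where 33% of all genes were higher), and 0 of 10 were lower (18.2% of all genes). At an unadjusted p under 0.05 limma also called 5 higher and 0 lower, and *Itgb3* was called lower with quantile normalization. In 3 subunits, *Itga2*, *Itga6* and *Itgb8*, every lesion exceeded every control eye, which held for 27.5% of all genes. The reverse, every lesion below every control eye, held for 0 of 10 subunits and 15.8% of all genes. Over the 10 subunits the median log2 difference was 0.81, against 0.17 over all genes. In whole tissue, fewer cells of a type and less RNA per cell cannot be told apart.

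**Figure D1:**
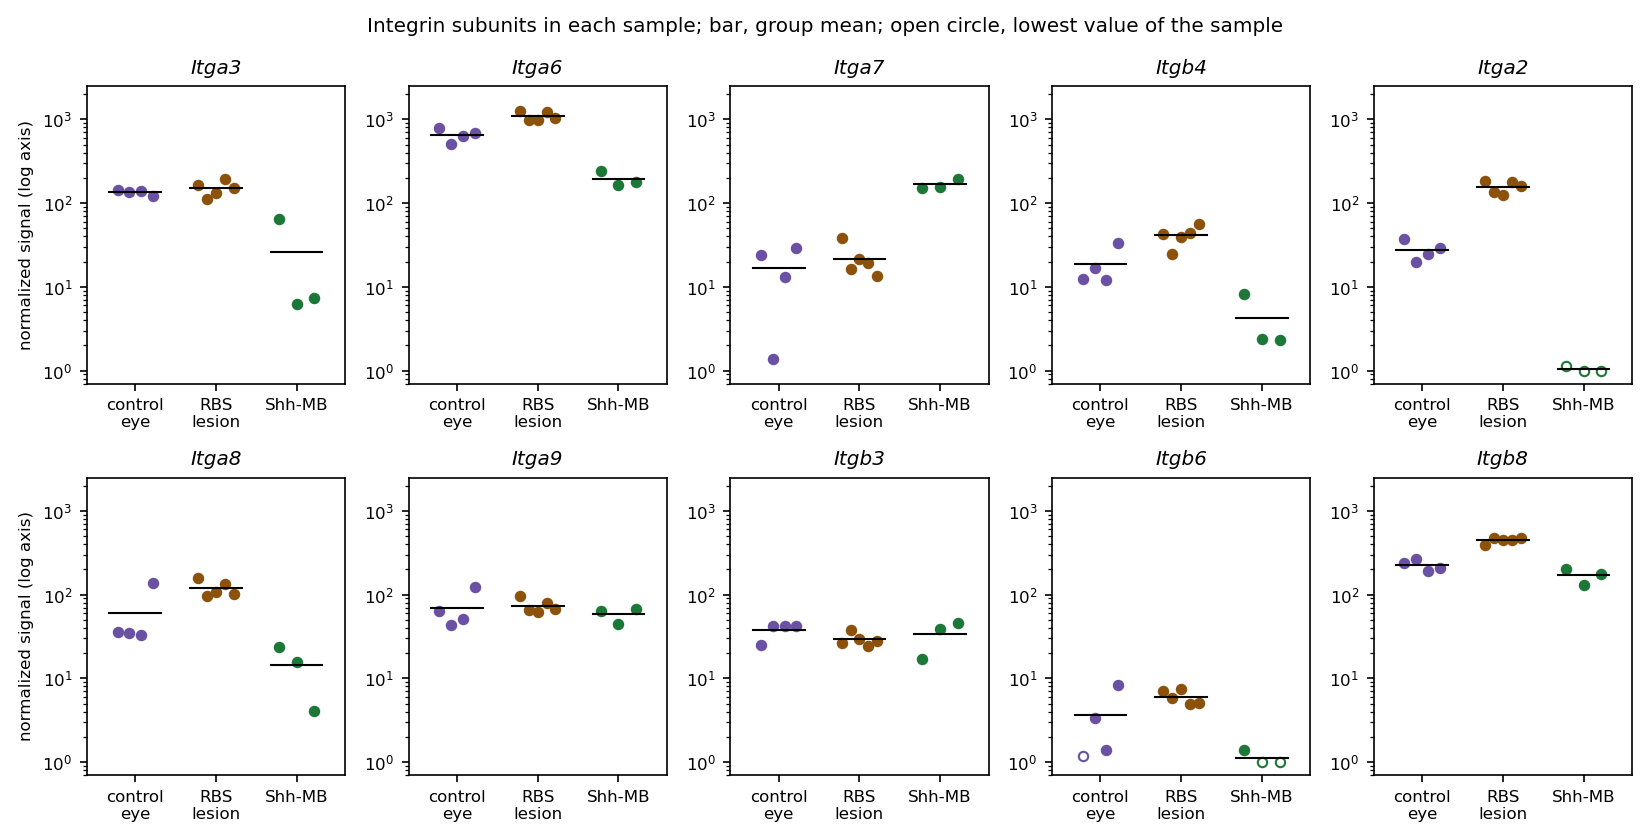
Normalized signal (log axis) of the 10 integrin subunits in 4 control eyes, 5 RBS lesions and 3 Shh-MBs. Each circle is a sample in the order of its number, open circles lie at the lowest value of their sample, and bars are group means. *Itga2*, *Itga6* and *Itgb8* separate lesions from control eyes without overlap, *Itga7* is high in the tumors, and *Itga2* is at the lowest value in all 3 tumors.

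Against Shh-MBs, the difference covered most of the family. RBS lesions were higher in 7 subunits (48.1% of all genes were higher) and lower in 1 (12.7% of all genes), and in each of these 8 the groups did not overlap. The same separation was seen as higher values in 47% and as lower values in 12.9% of all genes. The subunit lower in RBS lesions was *Itga7*, and *Itga9* and *Itgb3* did not pass the threshold. The median log2 difference of the 10 subunits was 2.11, against 0.53 over all genes. In Shh-MBs against control eyes, 4 subunits were lower in the tumors (31.4% of all genes were lower) and *Itga7* was higher (9.61% of all genes were higher). All tumors lay below all control eyes in 5 subunits and above them in 1, against 36% and 12.2% of all genes. The comparisons share samples with each other, so they are given side by side and not as independent results.

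**Figure D2:**
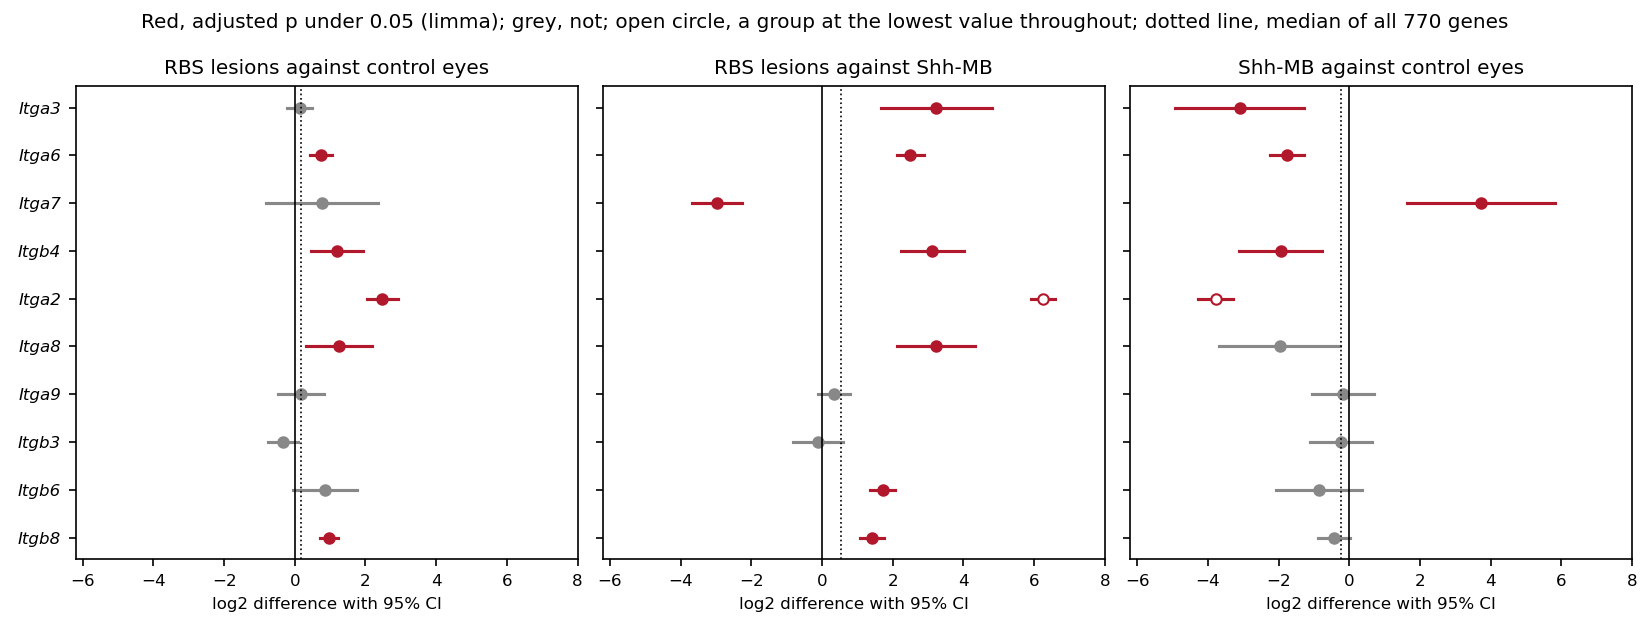
Log2 difference of each integrin subunit with its 95% confidence interval (limma) in the 3 comparisons. Red marks an adjusted p under 0.05, and the dotted line is the median of all 770 genes. Open circles mark *Itga2* where all 3 Shh-MBs lie at the lowest value, so that the difference depends on the added 1 and is no measured fold. *Itga7* is the subunit called higher in tumors in both comparisons with them.

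The collagen receptor subunit *Itga2* had the largest difference of the family between lesions and control eyes. Its signal was 36.9, 19.6, 24.8 and 29.3 in control eyes 1 to 4 and 181, 137, 126, 179.7 and 158 in RBS lesions 1 to 5. Each lesion was thus more than 3 times above the highest control eye. The means were 27.6 ± 7.32 (SD, n = 4) and 156 ± 24.6 (SD, n = 5), which gave a log2 difference of 2.48 with a standard error of 0.189 (limma, adjusted p = 1.31e-05), or 5.58-fold. The difference was 2.26 to 2.43 under the other scalings and 2.33 to 2.63 with any 1 of the 9 samples left out. Each Shh-MB was at its lowest value (1.12, 1 and 1), so no fold against the tumors is given. The tumors passed the test as lower than lesions (adjusted p = 9.95e-08, limma) and than control eyes (adjusted p = 1.99e-05), the second of which did not pass with values under 20 set to 20 (adjusted p = 0.178). Among the 15 collagen genes of the panel, 6 fell in RBS lesions against control eyes and the other 9 did not pass (limma), where 18.2% of all genes were lower. The median log2 difference of the collagen genes was -0.48, against 0.17 over all genes.

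The RefSeq promoter window of *Itga2* (GRCm38.p6, minus strand, chr13:114932051-114932350, 250 bases before to 50 after the transcription start) is shown because this subunit had the largest difference between lesions and control eyes. Capitals mark its single GC box, GGGCGG, which starts 2 bases after the first transcribed base.
Itga2: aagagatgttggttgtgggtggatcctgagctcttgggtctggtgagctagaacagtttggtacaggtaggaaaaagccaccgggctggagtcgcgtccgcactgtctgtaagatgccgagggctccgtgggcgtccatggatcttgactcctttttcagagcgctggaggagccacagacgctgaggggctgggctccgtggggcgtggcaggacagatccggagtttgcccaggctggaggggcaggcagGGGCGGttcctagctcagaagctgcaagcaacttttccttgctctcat

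Among the laminin receptor genes, *Itga6* was higher in every lesion than in every control eye. Control eyes had a signal of 784, 513, 641 and 696, RBS lesions 1251, 981, 970.0, 1214 and 1047, and Shh-MBs 242, 163 and 178. The 3 groups lay apart from each other without overlap, with lesions highest and tumors lowest. The means of lesions and control eyes were 1093 ± 132 (SD, n = 5) and 659 ± 113 (SD, n = 4), which differ by 0.74 on the log2 scale (standard error 0.142, limma, adjusted p = 0.00221), or 1.67-fold. Against Shh-MBs the log2 difference of the lesions was 2.50 (standard error 0.163, adjusted p = 7.72e-06, limma), or 5.65-fold, and that of Shh-MBs against control eyes was -1.76 (adjusted p = 0.000487, limma). Under the other scalings these were 1.65 to 2.33 and -1.64 to -1.09, and both passed.

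*Itgb4*, the hemidesmosome partner of alpha 6, had less signal. It was 12.3, 16.6, 12.03 and 33.4 in control eyes and 43.1, 24.4, 39.2, 43.4 and 56.3 in RBS lesions. Lesion 2 lay below control eye 4, and the other lesions were above all control eyes. The means were 18.6 ± 10.1 (SD, n = 4) and 41.3 ± 11.4 (SD, n = 5), 1.19 apart on the log2 scale (limma, standard error 0.326, adjusted p = 0.0139). Without control eye 4 the difference was 1.498. It was 1.03 to 1.498 with any 1 of the 9 samples left out and 0.93 to 1.14 under the other scalings, all of which passed. The call was lost with the methods' t-test after Benjamini-Hochberg adjustment (adjusted p = 0.0564). In Shh-MBs the signal was 8.10, 2.41 and 2.33, which in tumors 2 and 3 is 2.57 and 2.75 counts above background. Lesions exceeded them by 3.12 on the log2 scale (standard error 0.387, adjusted p = 0.000196, limma). With tumors this close to background the size depends on the setting, and it was 2.33 with 5 added before the log, 1.89 with quantile normalization and 0.995 with values under 20 set to 20, all of which passed. Shh-MBs were lower than control eyes (log2 difference -1.94, adjusted p = 0.0194, limma), a call that ended without tumor 2 (adjusted p = 0.0704) or without tumor 3 (adjusted p = 0.0666), with quantile normalization (adjusted p = 0.102) and with values under 20 set to 20 (adjusted p = 0.602).

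*Itga3*, which encodes another laminin-binding alpha subunit, did not pass between lesions and control eyes. Its signal was 144, 137, 139 and 119.9 in control eyes and 165, 113, 132, 192 and 153 in lesions, and the groups overlapped. The log2 difference was 0.14 with a 95% confidence interval from -0.21 to 0.49 (adjusted p = 0.497, limma), and its sign turned with median centring (-0.04) and quantile normalization (-0.03). Among the tumors, Shh-MB 1 stood apart with 65.2 against 6.16 and 7.42 in the other 2. Lesions were higher than tumors by 3.23 (standard error 0.682, adjusted p = 0.00347, limma) and by 4.27 without Shh-MB 1, or 2.09 to 3.07 under the other scalings. Shh-MBs were lower than control eyes (log2 difference -3.10, adjusted p = 0.0169, limma), which did not pass without tumor 2 (adjusted p = 0.0551) or tumor 3 (adjusted p = 0.0576) and was -4.13 without tumor 1.

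*Itga7*, known as the alpha subunit of the laminin receptor of skeletal muscle, was the subunit with its highest group mean in the tumors. It was 151, 155 and 194 in Shh-MBs, 38.2, 16.3, 21.5, 19.3 and 13.3 in RBS lesions and 24.0, 1.38, 13.1 and 29.3 in control eyes. All tumors were several times above all eyes, and lesions and control eyes overlapped. The log2 difference of RBS lesions to Shh-MBs was -2.97 (standard error 0.306, adjusted p = 7.39e-05, limma). Shh-MBs were higher than control eyes by 3.73 (standard error 0.870, adjusted p = 0.0138, limma), or by 2.92 without control eye 2, whose value corresponds to 1.36 counts above background. Both directions held under the other scalings (-3.86 to -3.13 and 3.85 to 4.41). Lesions and control eyes did not differ at the threshold (log2 difference 0.76, 95% confidence interval from -0.82 to 2.34, adjusted p = 0.410, limma), and without control eye 2 the difference was -0.04. The muscle marker *Cacng1*, a calcium channel subunit of skeletal muscle, did not exceed background in any Shh-MB and was between 3.40 and 23.4 in the eyes. It was the 1 muscle marker of the list found on the panel, and the part of muscle in the *Itga7* values was not tested.

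Of the alpha subunits that bind glycoproteins, *Itga8* was higher in lesions. Its signal was 35.7, 34.8, 33.3 and 136.5 in control eyes and 159.7, 96.4, 108, 135 and 100.2 in lesions. Control eye 4 lay within the range of the lesions, and the other 3 were below every lesion. With all 9 samples the difference in limma was 1.25 on the log2 scale (standard error 0.409, adjusted p = 0.0297). The call depended on single samples: it was lost without lesion 1 (adjusted p = 0.067), lesion 4 (0.0596), control eye 1 (0.0803), control eye 2 (0.0814) or control eye 3 (0.0846), and without control eye 4 the difference was 1.74 (adjusted p = 0.000124). It was also lost with quantile normalization (log2 difference 1.01, adjusted p = 0.0687), in 1 limma fit over all 12 samples (adjusted p = 0.0626), with the exact permutation test (adjusted p = 0.113) and with the methods' t-test after Benjamini-Hochberg adjustment (adjusted p = 0.141), and 11 of the 21 alternatives called it. In the tumors the signal was 23.8, 15.5 and 4.03, all below the lowest eye. Lesions exceeded tumors by 3.22 (standard error 0.476, adjusted p = 0.000518, limma) and by 2.55 without Shh-MB 3, or 2.10 to 3.05 under the other scalings. The difference of Shh-MBs to control eyes was -1.97 (adjusted p = 0.0676, limma) and -1.30 without Shh-MB 3. It passed with low genes left out (adjusted p = 0.0435), with a variance trend and robust fit (adjusted p = 0.0363) and in 1 limma fit over all 12 samples (adjusted p = 0.0159).

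*Itga9*, the tenascin-C receptor subunit, overlapped between the groups in each comparison. Control eyes had a signal of 63.9, 42.9, 51.3 and 122, lesions 95.7, 64.9, 61.2, 79.6 and 68.2, and Shh-MBs 63.0, 44.6 and 66.8. No comparison passed the threshold. The log2 differences were 0.18 for lesions against control eyes (95% confidence interval from -0.47 to 0.82, adjusted p = 0.645, limma), 0.34 for lesions against tumors (from -0.10 to 0.79, adjusted p = 0.157) and -0.17 for tumors against control eyes (from -1.05 to 0.71, adjusted p = 0.777). The difference between lesions and tumors turned with the scaling and was called as lower in lesions with median centring (-0.50, adjusted p = 0.0347) and with quantile normalization (-0.68, adjusted p = 0.00978).

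Of the partners of alpha v, *Itgb8* showed the tightest values. It was 239, 265, 194 and 209 in control eyes, 393, 468, 447, 445 and 476 in RBS lesions and 202, 132 and 175 in Shh-MBs. Every lesion was above every sample of the other groups, and control eyes and tumors overlapped. The lesions had 446 ± 32.5 (SD, n = 5), a coefficient of variation of 7.30%, where the median over the 589 genes with a mean of at least 20 in lesions was 13.3%. Control eyes had 227 ± 31.6 (SD, n = 4), and lesions were higher by 0.98 on the log2 scale (limma, standard error 0.112, adjusted p = 0.000121), or 1.97-fold. Against tumors with 169 ± 35.4 (SD, n = 3) it was 1.41 (standard error 0.150, adjusted p = 8.99e-05, limma), and 0.56 to 1.24 under the other scalings, which kept the call. Shh-MBs against control eyes gave -0.43 (95% confidence interval from -0.87 to 0.01, adjusted p = 0.110, limma), a sign that turned with median centring (0.24). It passed in 1 limma fit over all 12 samples (adjusted p = 0.0415).

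The promoter window of *Itgb8* (GRCm38.p6, minus strand, chr12:119238227-119238526, same extent) is shown because this gene had the smallest relative spread among lesions of the family. Capitals mark the E box CACCTG, 62 bases before the start.
Itgb8: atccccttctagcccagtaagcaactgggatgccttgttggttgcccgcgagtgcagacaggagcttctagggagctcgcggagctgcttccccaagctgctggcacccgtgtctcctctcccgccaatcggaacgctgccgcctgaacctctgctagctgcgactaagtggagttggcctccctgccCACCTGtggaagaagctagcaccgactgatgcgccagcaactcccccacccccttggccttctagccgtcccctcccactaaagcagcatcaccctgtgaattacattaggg

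The table of promoters held 8 windows for 6 of the 10 subunits (*Itga2*, *Itga3*, *Itga8*, *Itga9*, *Itgb6* and *Itgb8*) among 32851 windows of 300 bases. Because the lesions carry activated Wnt and Shh signaling, the TCF/LEF letters CTTTGAT and CTTTGAA, which share their first 6 letters, and the Gli letters GACCACCCA were searched on both strands. Of the 8 windows, 0 held any of them, and they occur in 3.73%, 5.14% and 0.253% of all windows. This says only that these letters are not in these windows. The GC box was found in 3 of the 8 windows (*Itga2* and *Itga3*) and in 35.7% of all windows, and the E box in 4 of 8 (*Itga3*, *Itga9*, *Itgb6* and *Itgb8*) and in 20.2% of all windows.

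*Itgb6*, whose alpha v pair is found mainly on epithelia, was close to background. Its signal was 1.17, 3.40, 1.41 and 8.42 in control eyes, where control eye 1 was at its lowest value, and 7.03, 5.78, 7.42, 4.87 and 5.06 in lesions. In lesions these values correspond to 4.04 to 8.42 counts above background. Shh-MBs 2 and 3 were at the lowest value and Shh-MB 1 had 1.39. Lesions and control eyes overlapped through control eye 4, and the log2 difference of 0.86 did not pass the threshold (adjusted p = 0.105, limma); without control eye 4 it was 1.29 (adjusted p = 0.00298). Lesions passed as higher than tumors (adjusted p = 3.80e-05, limma). The size of this difference depends on the number added before the log, since the tumors were at or near background: it was 1.71 with 1 added, 0.84 with 5 added and 0 with values under 20 set to 20, and no fold is given.

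*Itgb3*, the beta subunit of the platelet fibrinogen receptor and of a vitronectin receptor, was the subunit with a mean below that of control eyes in the lesions. Control eyes had a signal of 25.2, 41.9, 41.8 and 41.7, lesions 26.7, 38.2, 29.5, 24.2 and 27.9, and Shh-MBs 17.1, 38.9 and 45.6. All lesions were below control eyes 2 to 4, and control eye 1 lay among the lesions. The log2 difference of -0.34 did not pass (95% confidence interval from -0.76 to 0.08, adjusted p = 0.167, limma). It passed without control eye 1 (-0.52, adjusted p = 0.0201) and with quantile normalization (-0.61, adjusted p = 0.0454). Lesions against tumors gave -0.11 (95% confidence interval from -0.82 to 0.60, adjusted p = 0.784), which was -0.53 without Shh-MB 1 (adjusted p = 0.0399) and 0.16 without Shh-MB 3. It passed with median centring (-0.95, adjusted p = 0.0478) and with quantile normalization (-1.47, adjusted p = 0.00841). Tumors against control eyes gave -0.23 (from -1.11 to 0.65, adjusted p = 0.672, limma), with the opposite sign under median centring (0.44).

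The genes for ligands of these receptors moved in different directions. *Lama3* and *Lamb3* encode laminin chains of epithelial basement membranes. They had log2 differences of 1.44 and 1.36 between lesions and control eyes, which did not pass (adjusted p = 0.0849 and 0.0625, limma), and control eye 4 was the highest control eye in both. Of the 5 laminin genes described here, 1 was lower in lesions than in control eyes and the other 4 did not pass, where 18.2% of all genes were lower, with a median log2 difference of 0.53 against 0.17 over all genes. Against tumors 3 were higher in lesions and 1 lower, where 48.1% of all genes were higher and 12.7% lower (median 1.49 against 0.53). In tumors 1 was higher and 2 were lower than in control eyes, where 9.61% of all genes were higher and 31.4% lower (median -2.35 against -0.22). *Lama5* was the gene lower in lesions than in tumors (35.9 ± 10.2, SD, n = 5, against 67.0 ± 16.1, SD, n = 3, adjusted p = 0.0196, limma).

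Tenascin-C and osteopontin are glycoproteins bound by alpha 8, alpha 9 and alpha v integrins. *Tnc* was 564 ± 91.4 (SD, n = 5) in lesions, 221 ± 24.1 (SD, n = 4) in control eyes and 200 ± 19.5 (SD, n = 3) in the tumors. In limma the lesions were higher by 1.34 on the log2 scale than control eyes (adjusted p = 4.91e-05) and by 1.48 than tumors (adjusted p = 5.52e-05). *Spp1*, which encodes osteopontin, was 596 ± 161 (SD, n = 5), 241 ± 89.7 (SD, n = 4) and 180.0 ± 49.99 (SD, n = 3) in the same order, with log2 differences of 1.33 (adjusted p = 0.00249) and 1.73 (adjusted p = 0.000581, limma). For both genes every lesion was above every sample of the other groups. Fibronectin, *Fn1*, was 849 ± 350 (SD, n = 5) in lesions and 878 ± 284 (SD, n = 4) in control eyes (log2 difference -0.08, adjusted p = 0.843, limma) and 81.4 ± 10.9 (SD, n = 3) in tumors. Of 11 glycoprotein genes, 3 were higher and 4 lower in lesions than in control eyes, and 7 were higher and 1 lower than in tumors (median log2 differences -0.08 and 1.49, against 0.17 and 0.53 over all genes). Of all genes, 33% were higher and 18.2% lower in the first comparison, and 48.1% were higher and 12.7% lower in the second. Of the 15 collagen genes, 12 were higher in lesions than in tumors and the other 3 did not pass (limma), where 48.1% of all genes were higher, with a median log2 difference of 3.23 against 0.53. *Col1a1* led them with a log2 difference of 6.39 (adjusted p = 3.62e-06, limma).

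**Figure D3:**
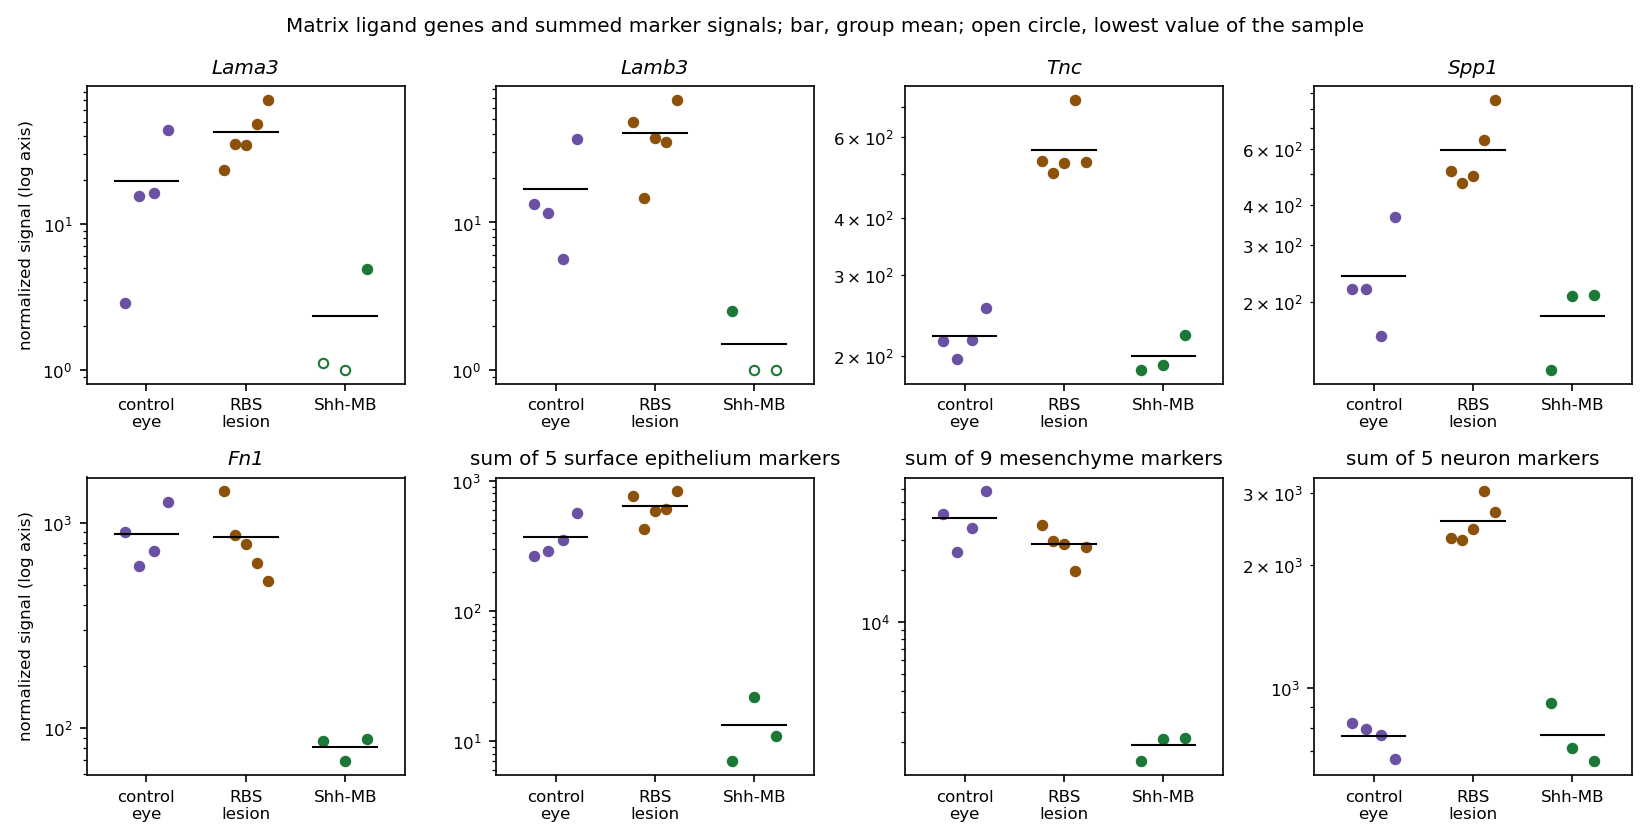
Normalized signal (log axes, which differ between panels) of 5 matrix ligand genes and summed signal of 3 marker lists in each sample, with group means as bars and open circles at the lowest value of the sample. *Tnc* and *Spp1* are higher in all 5 RBS lesions than in the other groups, control eye 4 is the highest control eye in *Lama3* and *Lamb3*, and the summed epithelial and mesenchymal markers are lowest in the 3 Shh-MBs, though single markers can differ from their sum.

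TGF-beta is encoded by 3 genes, of which *Tgfb1* and *Tgfb3* give latent forms that alpha v beta 6 and alpha v beta 8 bind. Against control eyes, *Tgfb2* and *Tgfb3* fell in lesions (log2 differences -0.61 and -0.38, adjusted p = 0.00226 and 0.0326, limma), and *Tgfb1* had a difference of 0.49 (adjusted p = 0.0921). Against tumors, *Tgfb1* and *Tgfb3* were higher in lesions by 0.87 and 2.37 (adjusted p = 0.00372 and 1.41e-05, limma), and *Tgfb2* differed by 0.30 (adjusted p = 0.144). Median centring moved the median of all genes in this comparison from 0.53 to -0.32 and shifts each gene alike. The size for *Tgfb1* and the sign for *Tgfb2* therefore depend on the scaling, and their values under it are not given here. Of 16 genes that act downstream of integrins, such as the focal adhesion kinase *Ptk2* and the Rac GTPases, 8 were higher and 1 lower in lesions than in control eyes, where 33% of all genes were higher and 18.2% lower, with a median log2 difference of 0.38 against 0.17 over all genes. Against tumors 12 were higher and 1 lower, where 48.1% of all genes were higher and 12.7% lower, with a median of 0.73 against 0.53. Among all listed ligand, receptor and signaling genes the largest rise to control eyes was that of the adaptor *Shc3* (378 ± 61.6, SD, n = 5, against 66.1 ± 7.42, SD, n = 4, log2 difference 2.49, adjusted p = 3.16e-06, limma) and the largest fall that of the basement membrane collagen *Col4a3* (-4.38, adjusted p = 0.000225, limma). *Col4a3* was 7.26 ± 8.86 (SD, n = 5) in lesions, from 2.1 to 23, and 125 ± 32.6 (SD, n = 4) in control eyes. With lesion values this low, the size of the fall depends on the number added before the log.

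Markers of other cell types also differed between the groups, and their counts of calls stand against 33% of all genes higher and 18.2% lower in lesions than in control eyes, and 48.1% higher and 12.7% lower than in tumors. Surface epithelium, represented by *Calml3*, *Cdh1*, *Sfn*, *Lama3* and *Lamb3*, summed to 428 to 833 in RBS lesions, 264 to 569 in control eyes and 6.99 to 21.9 in tumors, where *Calml3* did not exceed background in any sample. The medians of these sums were 611, 319 and 11.1. Of the 5 markers, 1 rose in lesions against control eyes and the other 4 did not pass (limma), and the sums of the groups overlapped. The 9 mesenchyme markers, 5 of them collagen genes, summed to 25588 to 58008 in control eyes, 19934 to 36575 in lesions and 1544 to 2112 in tumors. Of these, 1 was higher and 2 lower in lesions than in control eyes, and 8 were higher and 1 lower than in tumors. The lower one was *Pdgfra*, with 444 to 527 in lesions, 233 to 514 in control eyes and 770 to 1101 in tumors. Neuron markers summed to 671 to 819 in control eyes, 2308 to 3040 in lesions and 661 to 921 in tumors. *Mapt* made up most of the lesion sums (1789 to 2431). Of the 5 markers, 4 were higher in lesions than in control eyes. Against tumors 2 were higher and 1 lower, which was *Gria3* (163 to 250 in lesions, 305 to 421 in tumors). Retinal progenitor markers summed to 15925 to 21707 in control eyes, 4311 to 5749 in lesions and 3078 to 3414 in tumors. Of these 6 genes, 4 were lower and 1 higher in lesions than in control eyes. *Ccnd1* alone was 11229 to 15146 in control eyes, 1406 to 2236 in lesions and 2018 to 2419 in tumors. Endothelial markers (4 genes) summed to 1971 to 2480 in control eyes, 766 to 1065 in lesions and 154 to 262 in tumors, and 2 of the 4 were lower in lesions than in control eyes while *Flt1* and *Angpt2* did not pass. Myeloid markers (5 genes) summed to 103 to 153, 196 to 263 and 128 to 241 in the same order, and 2 of the 5 were higher in lesions than in control eyes. The tumors had the highest sum of 6 granule neuron progenitor markers (11238 to 13880, against 3322 to 4301 in the eyes). Of these 6, 4 were lower in lesions than in tumors and 2 did not pass. Against control eyes 1 was higher in lesions and 3 were lower. The higher one was *Ptch1*, with 773 to 1043 in lesions, 165 to 220 in control eyes and 959 to 1140 in tumors. The part of these cell types in the integrin values was not tested.

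Genes with the most similar pattern were taken as those with the smallest root mean square difference of log2 values over all 12 samples, each gene centred on its own mean. Nearest to *Itgb8* were *Gnaq* (0.15) and *Pik3r3* (0.19), nearest to *Itga6* were *Tcf7l1* (0.20) and *Efna5* (0.21), and nearest to *Itga2* were *Lrp2* (0.51) and *Fst* (0.66). *Itgb4* was nearest to *Jag2* (0.46) and *Rac3* (0.48), *Itga3* to *Col11a2* (0.46) and *Bmp4* (0.47), and *Itga8* to *Foxl2* (0.60) and *Jag2* (0.64). The tumor-high *Itga7* was nearest to *Fgfr4* (0.81) and *Map3k1* (1.00). *Itga9* lay near *Nfkbiz* (0.28) and *Tgfb1* (0.28), and *Itgb3* near *Smc3* (0.31) and *Ezh2* (0.33). *Gnaq* had mean signals of 716, 1672 and 595 in control eyes, lesions and tumors, and *Lrp2* had 31.3, 203 and 3.26.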

How the data were processed

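RNA of 12 mouse samples was counted with the nCounter Mouse PanCancer pathways panel, 1 eye, lesion or tumor per mouse. The authors compiled and normalized the counts with nSolver 4.0.70 and nCounter Advanced Analysis 2.0.115. The deposited values are normalized signal, linear and background-subtracted, and the background setting is not given in the sources used here.

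Groups follow the sample titles. Each pair of groups was fitted with limma 3.58.1 (R 4.3.3) on log2(signal + 1) of all 770 genes without a filter. Benjamini-Hochberg adjustment over all genes and a threshold of 0.05 were used. The step between low values, from a linear fit per sample, converted signal into counts above background, and the number of such counts limits the precision of weak genes. The fit was tested on simulated data.

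Members and gene lists were chosen with earlier results of these data known. Named were all subunits, their 2 nearest genes in pattern where a group mean reached 20, the largest listed rise and fall of each comparison and known partners. Alternatives were other scalings, pseudocounts, floors, tests, a replicate block and leaving out samples. Promoters came from RefSeq (GRCm38.p6). Protein sequences were not used here, and 1 gene of the lists is not reported here. Python 3.11.15 with matplotlib 3.10.9 was used for plotting.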

Additional observations from a re-analysis of the deposited data

Results flagged for a closer look

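*Itga8* in control eye 4 lay far from the other control eyes (signal 136.5), with a gap that was 0.95 of the range of the 4 log2 values. *Itgb3* in control eye 1 (signal 25.2) lay below the other 3, with a gap of 0.992 of the range. The limit for 4 values is 0.829. These were 2 of 20 groups of values looked at, and chance alone gives about 1 in 20.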

How the results depend on the processing

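In RBS lesions against control eyes, 5 subunits passed under all 3 other scalings, with 4 higher and 1 lower after quantile normalization, and 4 to 6 passed with 1 sample left out. The methods' t-test, run here with unequal variances but without the permutations the methods name, called 0 with step-down Bonferroni adjustment and 3 with Benjamini-Hochberg adjustment, and 4 had an unadjusted p under 0.05. Against Shh-MBs 8 passed, 10 with median centring or quantile normalization (7 higher, 3 lower), 3 and 6 with the methods' t-test (Bonferroni and Benjamini-Hochberg, the latter without *Itga3* at an adjusted p of 0.133 and *Itga8* at 0.0703), and 8 to 9 with 1 sample left out. In Shh-MBs against control eyes, 5 passed, 3 with values under 20 set to 20, 0 and 2 with the methods' t-test (Bonferroni and Benjamini-Hochberg), and 0 with the exact permutation test, where 6 had an unadjusted p under 0.05 and the smallest possible p is 0.0286. With 1 sample left out 3 to 5 passed.

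The replicate numbers do not mark shared animals, and samples with the same number had correlations of deviations between -0.148 and 0.188. With the number as a replicate block, 5, 8 and 3 subunits passed in the 3 comparisons.

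Signs turned in differences that did not pass in the fits reported, of which *Itga9* between lesions and tumors passed with the opposite sign. For lesions against control eyes these were *Itga3* (-0.042 with median centring, -0.033 with quantile normalization) and *Itga9* (-0.0038 with median centring), and with 1 sample left out *Itga7* ranged from -0.043 to 1.18 and *Itga9* from -0.016 to 0.48. For lesions against tumors *Itga9* was -0.50 and -0.68 under these scalings, and *Itgb3* ranged from -0.53 to 0.16 with 1 sample left out. For tumors against control eyes, median centring and quantile normalization gave 0.50 and 0.70 for *Itga9* and 0.44 and 0.91 for *Itgb3*, *Itgb8* was 0.24 with median centring, and *Itga9* was 0.14 with the replicate block. With 1 sample left out *Itga9* ranged from -0.36 to 0.14 and *Itgb3* from -0.50 to 0.19. The cause was not tested. With low genes left out, 6 passed for lesions against tumors, where *Itgb4* and *Itgb6* were not tested, and 4 for tumors against control eyes, where *Itga2* was not tested either.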

Other observations

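*Itgb7*, which encodes the beta subunit of lymphocyte homing receptors, was the other integrin gene on the panel. Its signal was at the lowest value in 3 of 5 RBS lesions, 1 of 4 control eyes and 1 of 3 Shh-MBs and reached 11.5 in Shh-MB 1. No comparison passed the threshold (log2 differences -0.47, -0.69 and 0.22 for lesions against control eyes, lesions against tumors and tumors against control eyes, adjusted p = 0.363, 0.325 and 0.856, limma).

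Among the lesions, *Itgb4* and *Itga7* varied most of the subunits with a mean of at least 20, with coefficients of variation of 27.7% and 44.7%, against a median of 13.3% over genes of that level. Single lesions carried both: without lesion 1 *Itga7* was 17.6 ± 3.59 (SD, n = 4), and without lesion 2 *Itgb4* was 45.5 ± 7.44 (SD, n = 4). RBS lesion 1 had the highest value of 5 of the 10 subunits, where it had the highest value of 29.4% of all genes. It was also the sample with the lowest depth (335349 counts above background, against 447857 to 638155 in the other lesions). Among the tumors, Shh-MB 1 had the highest value of 7 of the 10 subunits and of 51.6% of all genes. The 7 include *Itga2*, where all 3 tumors were at their lowest value and that of Shh-MB 1 was higher (1.12 against 1). The share of all genes also counts genes at the lowest value.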
